A study of Rattus norvegicus with 35 samples.

Results

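Mucous cell metaplasia, the appearance of mucus-secreting cells in airway epithelium that normally holds few of them, was examined through 10 genes measured in rat lung: Clca1, Muc5b, Muc5ac, Muc4, Agr2, Gcnt3, Itln1, Slc26a4, Spdef and Foxa3. They were taken as the non-control probes that carry one of these gene names on the array, 1 probe each, out of 34766 gene names in all. After a filter on dim probes 24468 gene names remained, 9 of the 10 genes among them, and Muc5ac was left out.

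Mucous cells make the gel that lines the airways. Their large secreted mucins are folded in the endoplasmic reticulum, carry branched O-linked sugars added in the Golgi, and unfold after secretion in a fluid whose bicarbonate is set by anion exchangers. In rodent airways the programme is known as a response to type 2 cytokines and to epidermal growth factor receptor signalling, acting through the transcription factors Spdef and Foxa3.

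The rats were female Sprague Dawley, 12 weeks old at the first of 4 weekly intratracheal instillations, and were either Wild Type or heterozygous for an altered allele (labelled GMO). Each animal received the vehicle Pluronic, Mitsui-7 or NM-403, both multi-walled carbon nanotube materials, at 0.25 mg/rat, and lung RNA was taken 3 days after exposure. There were 6 rats in each group, except for the heterozygous NM-403 group, which had 5, so that 35 Cy3-labelled RNAs were each hybridised to 1 array. The tissue was the whole accessory lobe, so more mucous cells and more RNA per mucous cell cannot be told apart.

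All 13 lung identity markers were well above background on every array, so the labelled tissue matched its markers. Between 66.1% and 86.4% of probes were well above background per array. The highest share belonged to replicate 5 of the Wild Type Mitsui-7 group, whose removal left the count of members called in both comparisons of that group with control and with NM-403 as it was (8 and 4 of 9). Arrays of the same slide deviated together (mean correlation 0.22 over 106 pairs, against -0.08 over 489 pairs on different slides). The slide was therefore tested as a block, and its effect is given where it moved a call.

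Expression is given as the log2 processed signal minus the 75th percentile of that array, so a value of 0 is the 75th percentile and each unit is a doubling. Values of different genes are not compared with each other, since each probe has its own brightness. Differences carry the standard error and the Benjamini-Hochberg adjusted p of a limma fit of all 24468 genes, with a threshold of 0.05. The numbers of a group are separate rats by the labels.

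The probes behind the members that were higher after Mitsui-7 than after NM-403 are shown first, because each of these results rests on a single 60-base probe, and Muc5ac is read by a pair of probes. They are written as the array's own annotation gives them.
Clca1: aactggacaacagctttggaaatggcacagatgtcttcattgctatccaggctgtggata
Muc5b: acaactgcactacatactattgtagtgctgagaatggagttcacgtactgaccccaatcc
Agr2: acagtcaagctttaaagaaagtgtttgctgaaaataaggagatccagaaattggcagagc
Gcnt3: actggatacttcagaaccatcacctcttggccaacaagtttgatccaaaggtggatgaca
Muc5ac: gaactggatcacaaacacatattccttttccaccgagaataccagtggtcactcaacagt
Muc5ac, second probe: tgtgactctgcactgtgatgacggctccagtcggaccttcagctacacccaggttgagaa

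The second Muc5ac probe carries an Ensembl transcript name on the array and only its description names the gene, so it falls outside the 10 probes chosen. The longest run of bases the Muc5ac probes share is 5.

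Upstream sequence was available for 8 of the 10 members in the RefSeq promoter table (build GRCr8), and not used for Muc5b and Muc5ac. The 250 bases before the gene start are shown for Clca1, Agr2 and Gcnt3, which were higher after Mitsui-7 than after NM-403 in both genotypes. They are also shown for Spdef, a transcription factor of the programme. Capitals mark matches, on either strand, to motifs of factors known in mucous cells: TTCNNNNGAA for STAT6, TGTTTAC or TGTTTGC for FOXA proteins, GGATGT for SPDEF and CCGGAA for the core of ETS factors.
Clca1, chr2:236624715-236624964, minus strand: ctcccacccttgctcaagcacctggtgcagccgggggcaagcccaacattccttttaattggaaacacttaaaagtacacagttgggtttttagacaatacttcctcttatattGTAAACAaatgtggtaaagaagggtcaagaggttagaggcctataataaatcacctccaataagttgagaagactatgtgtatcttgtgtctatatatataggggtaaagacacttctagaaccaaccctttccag
Agr2, chr6:58435658-58435907, plus strand: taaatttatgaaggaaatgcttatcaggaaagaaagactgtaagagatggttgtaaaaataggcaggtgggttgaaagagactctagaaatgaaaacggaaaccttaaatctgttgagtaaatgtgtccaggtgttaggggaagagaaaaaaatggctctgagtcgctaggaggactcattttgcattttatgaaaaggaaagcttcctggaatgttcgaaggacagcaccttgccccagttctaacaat
Gcnt3, chr8:79573558-79573807, minus strand: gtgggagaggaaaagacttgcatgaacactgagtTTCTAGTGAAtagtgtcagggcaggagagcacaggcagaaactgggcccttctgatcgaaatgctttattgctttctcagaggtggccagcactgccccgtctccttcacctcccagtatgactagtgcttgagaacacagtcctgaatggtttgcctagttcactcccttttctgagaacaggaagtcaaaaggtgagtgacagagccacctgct
Spdef, chr20:5787686-5787935, minus strand: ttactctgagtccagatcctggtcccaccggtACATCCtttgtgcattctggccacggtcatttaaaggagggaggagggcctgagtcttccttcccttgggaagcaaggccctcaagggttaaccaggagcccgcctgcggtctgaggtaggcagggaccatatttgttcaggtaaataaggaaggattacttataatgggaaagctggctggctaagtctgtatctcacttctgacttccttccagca

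Clca1 held a FOXA match 136 to 130 bases before its start, on the strand opposite to the gene. Gcnt3 held the STAT6 letters at 216 to 207 bases, which read the same on both strands. Spdef and Muc4 each held GGATGT on the opposite strand, at 218 to 213 and at 208 to 203 bases. Agr2 held none of the letters searched. No member of the 8 held CCGGAA in this window. Among 33465 promoters of the same length, 6.25% held the STAT6 letters, 7.2% a FOXA match, 10.1% GGATGT and 12.6% CCGGAA. A match is a description of letters and is not a binding site.

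Mitsui-7 instillation was followed by a broad rise of the mucous cell genes in both genotypes. In Wild Type rats 8 of the 9 members tested were higher than in vehicle controls, where 8.42% of all genes were called higher (14.0% in either direction), and the median difference of the members was 3.28 against 0.03 over all genes tested. In heterozygous rats 7 of 9 were higher, against 5.29% of all genes (11.6% in either direction), with a median of 2.94 against -0.02. None was lower in either genotype. The members were chosen with earlier results of these data known. Here and below the shares over all genes are therefore a background and not a test of the list. Gcnt3 reached the filter on dim probes through the Mitsui-7 arrays alone and so had to differ. Over the other 8 members 7 were higher in Wild Type and 6 in heterozygous rats, with medians of 2.82 and 2.62. These 8, here and in the next count, still hold Foxa3. It was well above background on no control array and reached the filter through exposed arrays only. In 6 of the 9, every exposed rat lay above every control, in both genotypes, against 4.52% of all genes in Wild Type and 2.73% in heterozygous rats (5 of 8 without Gcnt3 in each). NM-403 moved fewer of them. In Wild Type rats 2 of 9, Muc4 and Slc26a4, were higher than in controls, against 2.30% of all genes (3.20% in either direction). In heterozygous rats 3 of 9 were higher, with Clca1 added, against 1.27% of all genes (1.52% in either direction).

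**Figure D1:**
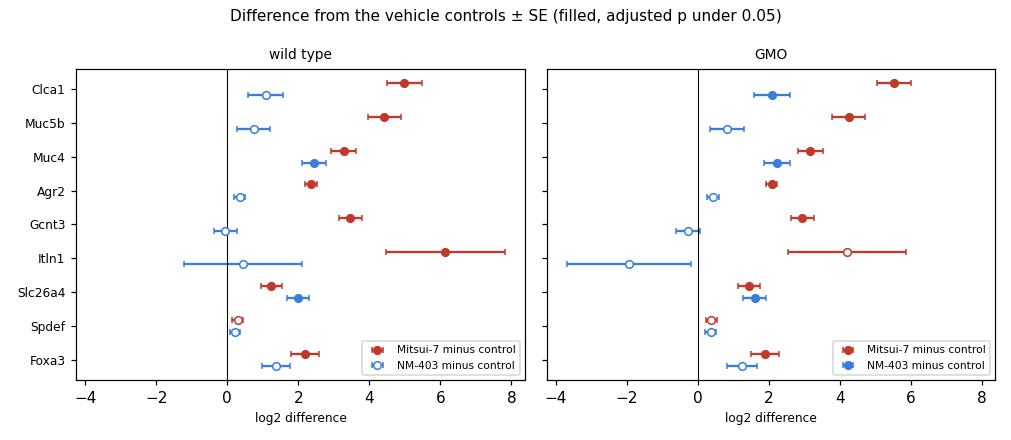
Log2 difference from the vehicle controls of the same genotype for the 9 members tested, with the standard error as bars; red is Mitsui-7, blue is NM-403, and filled points passed an adjusted p of 0.05. After Mitsui-7 8 members are filled in Wild Type and 7 in heterozygous rats; after NM-403 Muc4 and Slc26a4 are filled in both panels and Clca1 in heterozygous rats.

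Clca1 is a secreted protein of mucous cells that is packed with the mucins. In Wild Type controls it ranged from -5.92 to -2.66 (median -4.49), and after Mitsui-7 from -0.31 to 1.23 (median 0.58). In heterozygous controls it ranged from -7.79 to -4.88 (median -5.64), and after Mitsui-7 from -1.34 to 0.04 (median -0.60). The exposed and control rats did not overlap in either genotype. The difference was 4.99 ± 0.48, or 31.7-fold, in Wild Type (adjusted p = 5.76e-09) and 5.52 ± 0.48, or 45.9-fold, in heterozygous rats (adjusted p = 9.57e-10). In heterozygous controls 4 of 6 arrays were well above background for Clca1. Under normexp correction the differences were 4.04 and 3.46 (adjusted p = 2.64e-12 and 1.605e-10), so the size depends on how dim signals are corrected. On each of the 4 slides that held both Wild Type groups the difference was between 4.18 and 5.64, and on each of 5 slides with both heterozygous groups between 4.64 and 7.17.

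After NM-403 Clca1 lay from -4.46 to -2.40 (median -3.30) in Wild Type rats, with 1 of 6 above every control. The 5 heterozygous rats stood at -3.25, -3.81, -3.89, -4.40 and -4.86, all above their 6 controls. The difference was 1.08 ± 0.48 in Wild Type (adjusted p = 0.268) and 2.08 ± 0.51 in heterozygous rats (adjusted p = 0.0254). The heterozygous call was lost without any 1 of 5 rats, control replicates 2 or 5 or NM-403 replicates 1, 4 or 5, with adjusted p between 0.0549 and 0.0816. It was also lost when only the groups compared were fitted (adjusted p = 0.136) and under normexp background correction (0.63, adjusted p = 0.325). Within slides the heterozygous difference ran from 1.30 to 3.91 and was above 0 on 4 of 4 slides. The test of whether the NM-403 effect differed between genotypes gave 1.00 ± 0.70 (adjusted p = 0.983).

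Muc5b is a gel-forming mucin of the airway surface. In Wild Type controls it ranged from -9.37 to -6.01 (median -8.08), with 2 of 6 arrays well above background, and after Mitsui-7 from -4.47 to -1.90 (median -3.46). In heterozygous controls the range was -9.54 to -6.74 (median -8.40), with 1 of 6 arrays above background, and after Mitsui-7 -4.54 to -3.53 (median -4.14). All 12 Mitsui-7 arrays were well above background and none overlapped its controls. The rise was 4.42 ± 0.46 in Wild Type (adjusted p = 2.56e-08) and 4.24 ± 0.46 in heterozygous rats (adjusted p = 8.67e-08); as most controls lay near background, the measured size depends on values at that edge.
After NM-403 Muc5b ranged from -7.56 to -6.76 (median -6.88) in Wild Type rats, and stood at -6.95, -7.33, -7.33, -7.52 and -8.47 in heterozygous rats. These values lay within the range of the controls. The differences were 0.74 ± 0.46 and 0.82 ± 0.49 (adjusted p = 0.503 and 0.532).

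Agr2, a disulfide isomerase of the endoplasmic reticulum needed for mucin assembly, was well above background on all 35 arrays. In Wild Type rats it ranged from -3.33 to -2.01 (median -2.71) in controls, from -2.70 to -1.86 (median -2.46) after NM-403 and from -0.74 to -0.07 (median -0.35) after Mitsui-7. In heterozygous rats it ranged from -3.28 to -2.58 (median -2.75) in controls and from -1.11 to -0.54 (median -0.78) after Mitsui-7, while the NM-403 rats stood at -2.27, -2.40, -2.48, -2.52 and -2.58. The Mitsui-7 groups stood clear of the other groups, which overlapped one another. The Mitsui-7 difference was 2.36 ± 0.16, or 5.14-fold, in Wild Type (adjusted p = 3.99e-12) and 2.07 ± 0.16, or 4.21-fold, in heterozygous rats (adjusted p = 1.08e-10). After NM-403 the difference was 0.35 ± 0.16 and 0.42 ± 0.17 (adjusted p = 0.301 and 0.299).

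Gcnt3, which adds the branch that starts core 2 and core 4 O-glycans on mucins, was well above background on all 12 Mitsui-7 arrays and on none of the other 23. It reached the filter on dim probes through those 12 arrays alone, so its tests are no independent support. Its Mitsui-7 values ran from -5.95 to -4.86 (median -5.48) in Wild Type and from -6.87 to -5.49 (median -6.46) in heterozygous rats. Its control values ran from -9.37 to -7.80 (median -9.16) and from -9.77 to -8.22 (median -9.38). Where every array of a group was not well above background, the fold is given as a lower bound, taken against the lowest signal that was well above background on each dim array or the probe's own value if higher. Gcnt3 was at least 3.76-fold higher after Mitsui-7 than in controls in Wild Type (adjusted p = 2.48e-09) and at least 1.825-fold higher in heterozygous rats (adjusted p = 9.90e-08). Under normexp background correction, which draws dim signals together, the heterozygous difference was 0.43 with an adjusted p of 0.112.

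**Figure D2:**
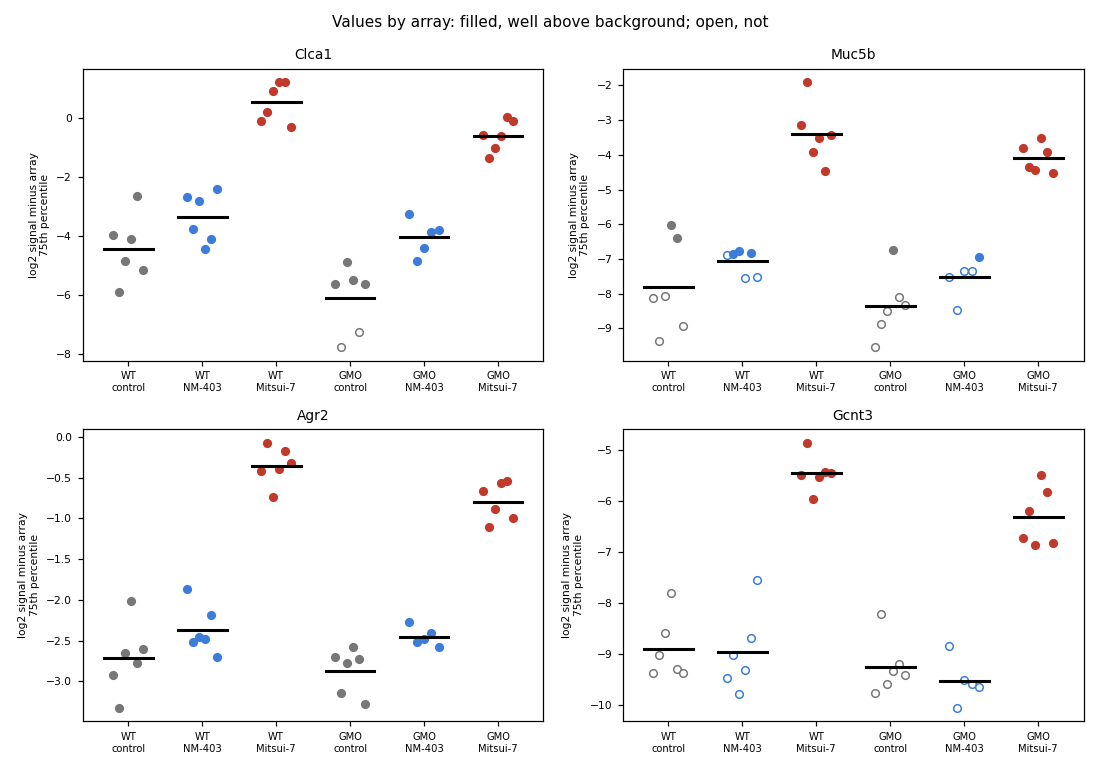
Log2 signal minus the array's 75th percentile for Clca1, Muc5b, Agr2 and Gcnt3 in each rat, by group, with the group mean as a bar; filled points were well above background. In each panel both Mitsui-7 groups lie above every rat of the other 4 groups; for Gcnt3 they hold all 12 filled points.

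Muc5ac is the gel-forming mucin classically induced when mucous cells appear. Its probe was well above background on 3 arrays, all of Wild Type rats given Mitsui-7. These rats stood at -5.76, -6.36, -6.40, -7.32, -7.46 and -9.45, and their controls ranged from -9.92 to -8.81 (median -9.59). Thus 5 of 6 exposed rats lay above every control. An exact two-sided permutation test gave p = 0.00649 for a difference of 2.39 (0.0303 adjusted over 7 comparisons; 0.00216 is the smallest p these group sizes allow). As no control array was well above background, the rise is given as at least 1.18-fold. Setting all values to at least the lowest signal above background reduced the difference to 0.71 (exact permutation p = 0.167 adjusted over the 7 comparisons), and normexp correction to 0.45 (0.121, adjusted likewise). In heterozygous rats Mitsui-7 gave a difference of 0.36 (unadjusted exact permutation p = 0.400), with no array above background.

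The second Muc5ac probe was well above background on all 12 Mitsui-7 arrays. Among Wild Type rats it ranged from -9.71 to -6.09 (median -7.23) in controls and from -5.49 to -1.66 (median -4.67) after Mitsui-7, and the groups did not overlap. Among heterozygous rats it ranged from -9.25 to -6.06 (median -7.10) in controls and from -6.21 to -4.86 (median -5.80) after Mitsui-7, and the groups overlapped. The differences were 3.55 ± 0.65 (adjusted p = 0.00022) and 1.77 ± 0.65 (adjusted p = 0.0743). After NM-403 they were -0.06 ± 0.65 and -0.69 ± 0.68 (adjusted p = 0.98 and 0.75). Whether the Mitsui-7 difference itself changed with genotype gave -1.78 ± 0.92 (adjusted p = 1).

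Muc4 is a mucin anchored in the apical membrane rather than secreted as gel, and it was higher after both materials. In Wild Type rats it ranged from -6.93 to -5.58 (median -6.15) in controls, from -3.74 to -2.03 (median -2.88) after Mitsui-7 and from -5.59 to -3.15 (median -3.51) after NM-403. Among heterozygous rats it ranged from -6.75 to -5.70 (median -6.38) in controls and from -3.89 to -2.40 (median -3.11) after Mitsui-7, and the NM-403 rats stood at -3.63, -3.69, -3.99, -4.65 and -4.83. Exposed rats lay above all controls of their genotype except for 1 Wild Type NM-403 rat at -5.59. The Mitsui-7 difference was 3.28 ± 0.34, or 9.69-fold, in Wild Type (adjusted p = 2.66e-08) and 3.17 ± 0.34, or 8.99-fold, in heterozygous rats (adjusted p = 8.21e-08). The NM-403 difference was 2.44 ± 0.34, or 5.42-fold (adjusted p = 3.86e-05), and 2.22 ± 0.36, or 4.655-fold (adjusted p = 0.000476). Under normexp correction the heterozygous NM-403 difference was 0.70 with an adjusted p of 0.155. Across the alternatives the Mitsui-7 difference was as low as 1.66 in Wild Type and 1.40 in heterozygous rats. The Wild Type NM-403 difference was as low as 1.11. Each of these still passed, but the folds depend on the processing.

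Slc26a4 encodes pendrin, an apical exchanger of chloride for bicarbonate and thiocyanate. In Wild Type rats it ranged from -4.18 to -2.65 (median -3.23) in controls, from -2.81 to -1.73 (median -2.11) after Mitsui-7 and from -2.17 to -1.01 (median -1.31) after NM-403. In heterozygous rats it ranged from -3.44 to -2.13 (median -2.86) in controls and from -2.38 to -0.54 (median -1.28) after Mitsui-7, and the NM-403 rats stood at -0.73, -0.79, -1.43, -1.46 and -2.002. The NM-403 groups did not overlap their controls, whereas 1 Mitsui-7 rat of each genotype fell within the control range. Slc26a4 rose by 1.99 ± 0.30 after NM-403 in Wild Type (adjusted p = 0.000105) and by 1.60 ± 0.32 in heterozygous rats (adjusted p = 0.00395). After Mitsui-7 it rose by 1.24 ± 0.30 (adjusted p = 0.00485) and 1.45 ± 0.30 (adjusted p = 0.00143).

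Itln1, a secreted lectin that binds microbial sugars, split the Mitsui-7 rats within each genotype. Wild Type Mitsui-7 rats stood at 3.85, 3.51, 3.15, -1.76, -3.03 and -3.95, and their controls ranged from -9.47 to -2.15 (median -5.49). Heterozygous Mitsui-7 rats stood at 2.24, 2.14, 1.57, -4.04, -4.78 and -6.74, and their controls ranged from -9.24 to -4.04 (median -5.32). In both genotypes 3 exposed rats stood far above all others and the remaining 3 lay near or among the controls. The difference was 6.14 ± 1.67 in Wild Type (adjusted p = 0.0115), with 4 of 6 rats above every control. It was 4.20 ± 1.67 in heterozygous rats (adjusted p = 0.102), where 3 of 6 rats lay clearly above every control and a further rat was level with the highest one. Without Mitsui-7 replicate 3 the heterozygous difference was 5.23 and passed (adjusted p = 0.0355). After NM-403 Itln1 ranged from -8.26 to -2.12 in Wild Type rats, and the heterozygous rats stood at -4.15, -7.67, -8.57, -8.84 and -9.45, with 1 array well above background. These differences were 0.45 ± 1.67 and -1.93 ± 1.75 (adjusted p = 0.943 and 0.717).

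**Figure D3:**
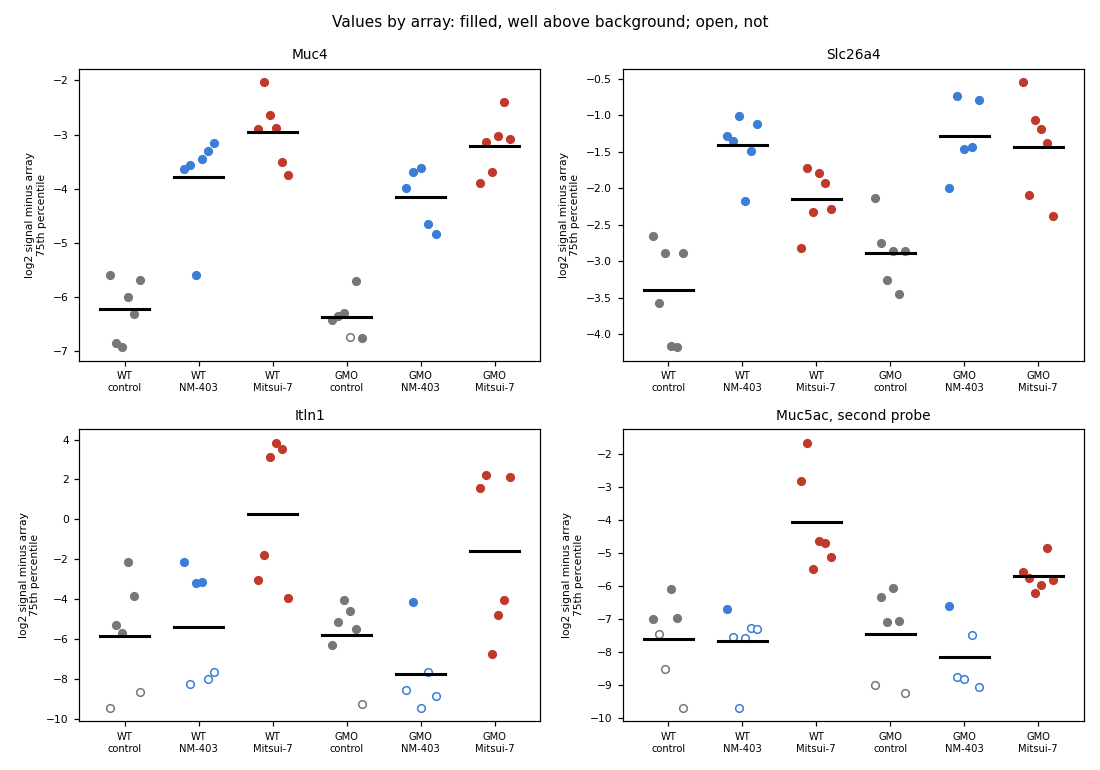
Log2 signal minus the array's 75th percentile for Muc4, Slc26a4, Itln1 and the second Muc5ac probe in each rat, by group, with the group mean as a bar; filled points were well above background. Muc4 and Slc26a4 stand high after both materials, Itln1 forms a high set of 3 rats in each Mitsui-7 group, and the second Muc5ac probe is highest in Wild Type rats given Mitsui-7.

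Foxa3, a forkhead factor of mucous and gut epithelium, was well above background on 11 of 12 Mitsui-7 arrays and on no control array. It ranged from -6.98 to -5.70 (median -6.43) after Mitsui-7 in Wild Type rats and from -9.95 to -7.39 (median -8.46) in their controls. In heterozygous rats it ranged from -7.03 to -5.90 (median -6.62) after Mitsui-7 and from -9.28 to -7.13 (median -8.80) in controls. Neither pair of groups overlapped. Foxa3 was at least 1.94-fold higher in Wild Type (adjusted p = 0.000201) and at least 1.53-fold higher in heterozygous rats (adjusted p = 0.00136). Under normexp correction neither call held (adjusted p = 0.087 and 0.599).
After NM-403 Foxa3 was well above background on 3 of 6 Wild Type and 3 of 5 heterozygous arrays. As no control array was, the Wild Type rise is given as at least 1.104-fold (adjusted p = 0.051), and no fold is given for heterozygous rats (adjusted p = 0.151). With the slide as a fixed block both passed (adjusted p = 0.0214 and 0.024). With values set to the detection floor the differences were 0.49 and -0.01 (adjusted p = 0.18 and 0.987), and under normexp correction 0.33 and -0.14 (adjusted p = 0.424 and 0.621), so the heterozygous direction turned.

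Spdef, the ETS factor that drives mucous cell differentiation in mouse airways, lay within a narrow band in all groups. Wild Type rats ranged from -1.86 to -1.06 (median -1.47) in controls and from -1.44 to -0.98 (median -1.15) after Mitsui-7. In heterozygous rats it ranged from -1.79 to -1.07 (median -1.45) in controls and from -1.30 to -0.65 (median -1.11) after Mitsui-7. Exposed and control rats overlapped in both genotypes. The differences were 0.30 ± 0.15 (adjusted p = 0.216) and 0.37 ± 0.15 (adjusted p = 0.119). With the slide as a fixed block they were 0.34 and 0.46 and passed (adjusted p = 0.022 and 0.00244), and within slides they were above 0 on 4 of 4 and 5 of 5 slides. All 9 members tested in Wild Type and 8 of 9 in heterozygous rats were then higher after Mitsui-7, against 11.7% and 9.17% of all genes under the same block. These counts hold Gcnt3, which reached the filter through the Mitsui-7 arrays alone and so had to differ. They also hold Foxa3, which reached it through exposed arrays only. After NM-403 Spdef differed by 0.22 ± 0.15 and 0.36 ± 0.16 (adjusted p = 0.588 and 0.36).

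The materials were compared directly at the same dose and time. In both genotypes Clca1, Muc5b, Agr2 and Gcnt3 were higher after Mitsui-7 than after NM-403, 4 of 9 members, where 2.78% of all genes were called higher in Wild Type and 1.09% in heterozygous rats (3.33% and 1.37% in either direction). Without Gcnt3, 3 of 8 were higher in each genotype. The Clca1 difference was 3.91 ± 0.48, or 15.0-fold, in Wild Type (adjusted p = 2.17e-06) and 3.44 ± 0.51, or 10.9-fold, in heterozygous rats (adjusted p = 5.86e-05). For Muc5b it was 3.68 ± 0.46 and 3.42 ± 0.49 (adjusted p = 2.77e-06 and 3.46e-05). Agr2 was 4.04-fold higher in Wild Type (adjusted p = 7.86e-10) and 3.16-fold higher in heterozygous rats (adjusted p = 1.26e-07). Gcnt3 was at least 3.14-fold and at least 2.12-fold higher (adjusted p = 8.21e-09 and 1.72e-07), although under normexp correction its adjusted p was 0.0699 and 0.0513. For all 4 genes every Mitsui-7 rat lay above every NM-403 rat of its genotype, against 1.92% of all genes in Wild Type and 1.52% in heterozygous rats. Foxa3 separated in the same way in heterozygous rats without passing the test. Gcnt3 had to separate, as it reached the filter through the Mitsui-7 arrays alone. Without it, 3 of 8 members separated in Wild Type and 4 of 8, Foxa3 included, in heterozygous rats.

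Muc4 did not pass between the materials. Its difference was 0.84 in Wild Type (95% interval 0.14 to 1.54, adjusted p = 0.238) and 0.95 in heterozygous rats (0.21 to 1.69, adjusted p = 0.261). For Slc26a4 it was -0.74 in Wild Type (-1.36 to -0.12, adjusted p = 0.234) and -0.15 in heterozygous rats (-0.80 to 0.50, adjusted p = 0.8655). For Foxa3 the intervals ran from 0.01 to 1.62 and from -0.19 to 1.50, and for Spdef from -0.23 to 0.39 and from -0.32 to 0.34. These intervals bound the size of a difference and do not show that the materials acted alike. Itln1 had a difference of 5.69 ± 1.67 in Wild Type (adjusted p = 0.0527), which passed with the slide as a fixed block (adjusted p = 0.0322), and of 6.14 ± 1.75 in heterozygous rats (adjusted p = 0.0819). The heterozygous difference passed with the slide as a random block (5.87, adjusted p = 0.0405) but not as a fixed block (5.81, adjusted p = 0.0652), and passed without Mitsui-7 replicate 3 (7.16, adjusted p = 0.0248). For Muc5ac in Wild Type rats the exact permutation test gave p = 0.00866 for 2.20 (0.0303 adjusted over 7 comparisons). Without any 1 of Mitsui-7 replicate 2 or NM-403 replicates 2, 3 or 5 the adjusted exact permutation p was 0.053. The call was also lost with values set to the detection floor (0.45, adjusted exact permutation p = 0.263) and under normexp correction (0.29, adjusted exact permutation p = 0.280), since no NM-403 array was well above background. The second Muc5ac probe differed by 3.61 ± 0.65 in Wild Type (adjusted p = 0.000599) and by 2.46 ± 0.68 in heterozygous rats, which did not pass (adjusted p = 0.0687).

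**Figure D4:**
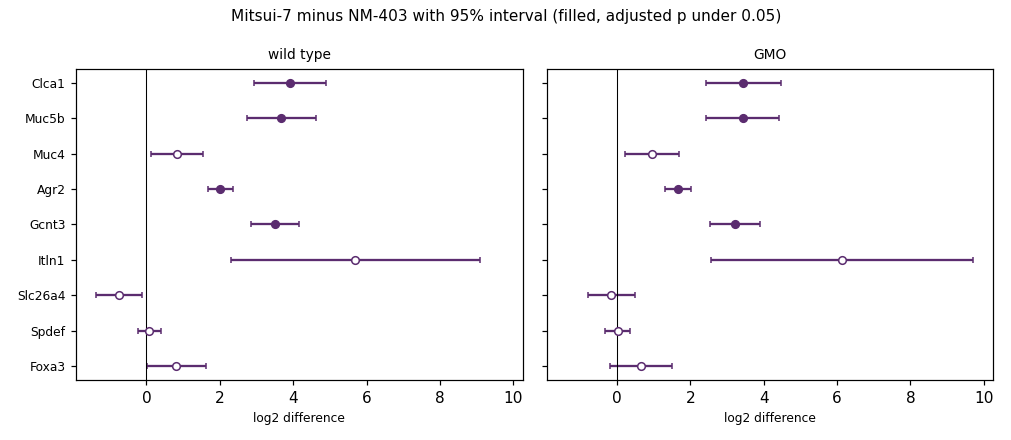
Log2 difference between Mitsui-7 and NM-403 in the same genotype for the 9 members tested, with the 95% interval as bars; filled points passed an adjusted p of 0.05. Clca1, Muc5b, Agr2 and Gcnt3 are filled in both panels, and the Slc26a4 point lies at -0.74 in Wild Type.

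Genotype alone called none of the 9 members, nor any of the 24468 genes (0% called; 483 genes and 1 member had an unadjusted p under 0.05). No member had every heterozygous control above every Wild Type control, against 0.0736% of all genes. The member with an unadjusted p under 0.05 was Clca1, 1.67 ± 0.48 lower in heterozygous than in Wild Type controls (-1.67, adjusted p = 1), with 2 of 6 heterozygous rats below every Wild Type control and a lower mean on all 5 slides. Those 2 rats are the heterozygous controls in which Clca1 was not well above background, and under normexp correction the difference was -0.48 (adjusted p = 0.9999). The tests of whether the Mitsui-7 or the NM-403 effect differed between genotypes called 0 of 9 members and 0 of all genes (0% in both; 729 and 412 genes, and no member, had an unadjusted p under 0.05). In limma's fit the 95% interval of the Mitsui-7 effect in heterozygous minus Wild Type rats ran from -0.86 to 1.93 for Clca1, from -1.51 to 1.16 for Muc5b and from -0.76 to 0.18 for Agr2.

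In the order of group means, Clca1, Muc5b, Agr2 and Gcnt3 shared the same first places: Wild Type Mitsui-7, then heterozygous Mitsui-7, then a gap wider than the spread of either neighbouring group. The ranges of the Mitsui-7 groups overlapped for each of these genes, and the 4 remaining groups overlapped with their neighbours. For Slc26a4 the order was led by both NM-403 groups, and each neighbouring pair of groups overlapped. For Spdef no neighbouring pair was separated.

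Within groups the members varied largely apart from one another. With group means removed, the correlation over 35 arrays was 0.52 for Muc5b with Agr2 and 0.31 for Clca1 with Muc5b. It was 0.54 for Slc26a4 with Spdef and -0.46 for Spdef with Foxa3. Itln1 lay between -0.31 and 0.19 with every other member. These points share slides and array scaling, and before group means were removed Muc5b with Agr2 stood at 0.95.

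**Figure D5:**
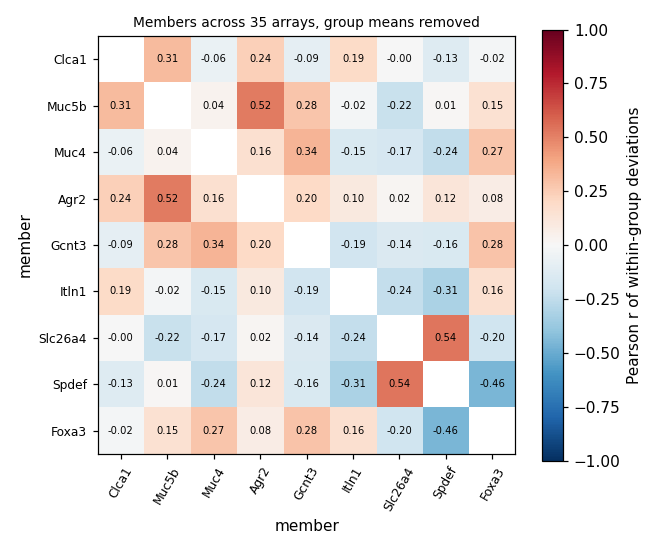
Pearson correlation between the 9 members tested over 35 arrays after each group's mean was removed; red is positive, blue negative, and the diagonal is blank. The highest cell is Slc26a4 with Spdef at 0.54 and the lowest Spdef with Foxa3 at -0.46.

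By the same measure, the genes most like each member were sought among 14713 others with a symbol. Slc26a4 was closest to Cfb, a complement factor (0.85), Lcn2, a siderophore-binding protein (0.82) and Mapkapk3 (0.81). Itln1 was closest to Nectin4, an epithelial adhesion protein (0.82). Spdef was closest to Ethe1 (0.90), Entpd3 (0.89) and Babam2 (0.87), and Foxa3 to Map4k1 (0.80). For Clca1, Muc5b, Muc4, Agr2 and Gcnt3 the highest correlation was between 0.62 for Clca1 with Cyct and 0.70 for Muc4 with Nlrx1. Before group means were removed these pairs stood at 0.31 and 0.38, Spdef with Ethe1 at 0.59 and Slc26a4 with Cfb at 0.90. Each correlation was picked as among the highest of 14713 and carries no test.

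Other genes of mucin production followed in part. The counts of this and the following lists stand beside the shares over all genes after Mitsui-7. These were 8.42% higher in Wild Type and 5.29% in heterozygous rats (14.0% and 11.6% in either direction). Of 18 genes of mucus packaging and secretion tested, 4 were higher and 1 lower after Mitsui-7 in each genotype. Ern2, an endoplasmic reticulum stress sensor of mucous cells, ranged from -7.73 to -6.54 in Wild Type controls and from -3.56 to -3.10 after Mitsui-7. Its difference was 3.68 ± 0.22, or 12.8-fold, in Wild Type (adjusted p = 3.48e-13) and 3.40 ± 0.22, or 10.55-fold, in heterozygous rats (adjusted p = 1.41e-12). Ern2 was also 7.17-fold and 5.205-fold higher after Mitsui-7 than after NM-403 (adjusted p = 4.02e-10 and 5.99e-08). After NM-403 it differed from controls by 0.84 and 1.02 (adjusted p = 0.0298 and 0.0162), calls that normexp correction did not keep (adjusted p = 0.194 and 0.927). Bpifb1, a secreted airway protein, rose 9.78-fold and 9.595-fold after Mitsui-7, and 2.92-fold and 4.42-fold after NM-403. Retnlb, a goblet cell product, rose by 1.95 ± 0.62 in Wild Type rats (adjusted p = 0.0331), a call lost without Mitsui-7 replicate 5 (adjusted p = 0.059) and under quantile normalization (0.0582).

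Of 15 O-glycosylation genes tested, 5 were higher and 1 lower after Mitsui-7 in Wild Type and 4 higher in heterozygous rats. They were led by enzymes that place the first sugar on mucins. Galnt5 rose 3.62-fold and 4.08-fold, Galnt12 2.71-fold and 2.30-fold, Galnt7 1.92-fold and 1.80-fold and Galnt3 1.89-fold and 1.71-fold. Galnt12 was 2.345-fold higher after Mitsui-7 than after NM-403 in Wild Type (adjusted p = 0.000196) and 2.00-fold higher in heterozygous rats (adjusted p = 0.00683). Galnt5 rose after NM-403 as well (3.095-fold, adjusted p = 0.000451, and 2.855-fold, adjusted p = 0.00295), although the heterozygous call was lost under normexp correction (0.21, adjusted p = 0.376).

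Only 2 further mucins passed the filter. Muc20, a membrane mucin, rose 3.41-fold after NM-403 in Wild Type (adjusted p = 2.52e-07) and 2.18-fold in heterozygous rats (adjusted p = 0.000632), the latter not kept under quantile normalization (adjusted p = 0.0826) or normexp correction (0.674). After Mitsui-7 it rose 2.19-fold and 1.72-fold, calls that quantile normalization did not keep (adjusted p = 0.272 and 0.193). Muc1, also membrane-bound, rose after NM-403 by 0.59 ± 0.13 and 0.63 ± 0.13 (adjusted p = 0.006 and 0.00827). In Wild Type rats Muc20 and Muc1 were lower after Mitsui-7 than after NM-403 (-0.64 ± 0.18 and -0.45 ± 0.13, adjusted p = 0.0398 and 0.0414), and neither call held under quantile normalization (adjusted p = 0.0646 and 0.0665) or without Mitsui-7 replicate 5 (0.154 and 0.0881).

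Few RNAs of signals known to drive mucous cells were called higher after Mitsui-7, and signalling itself was not tested. Of 18 type 2 and growth factor genes tested, 0 were higher and 3 lower after Mitsui-7 in Wild Type in limma's fit, and 1 higher and 3 lower in heterozygous rats, while 6 and 5 had an unadjusted p under 0.05. Il4r, the interleukin 4 and 13 receptor chain, differed by -0.49 ± 0.17 and -0.55 ± 0.17 (adjusted p = 0.0452 and 0.029), but the Wild Type call was lost without Mitsui-7 replicate 5 (adjusted p = 0.111) and both were lost under normexp correction (adjusted p = 0.081 and 0.0512). Notch1 fell by 0.60 in both genotypes (adjusted p = 0.00177 and 0.0024). Areg, a ligand of the epidermal growth factor receptor, rose 2.37-fold in heterozygous rats (adjusted p = 0.000902). Il13ra2 was called higher after Mitsui-7 than after NM-403 in Wild Type rats. That call was lost under quantile normalization (0.90, adjusted p = 0.188) and normexp correction (0.24, adjusted p = 0.844). It was also lost without Mitsui-7 replicate 5 (1.22, adjusted p = 0.0872). Among 14 epithelial transcription factors 3 were higher in Wild Type and 2 higher and 1 lower in heterozygous rats; Elf3, an epithelial ETS factor, rose 1.71-fold and 1.88-fold and Foxj1, the factor of ciliated cells, 1.69-fold and 1.64-fold. Of 11 ion transport genes 2 were higher and 1 lower after Mitsui-7 in Wild Type, and 0 higher and 2 lower in heterozygous rats. Scnn1a, a sodium channel subunit, fell by 0.68 and by 0.57 (adjusted p = 0.000377 and 0.00324). The higher ones in Wild Type were Cftr and Slc26a6. Both calls were lost without Mitsui-7 replicate 5 (0.59 and 0.45, adjusted p = 0.0732 and 0.066).

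Some markers of other cells were also called after Mitsui-7. Over all genes 8.42% were called higher in Wild Type and 5.29% in heterozygous rats (14.0% and 11.6% in either direction). A single call in a short list cannot be told from these shares. Of 6 basal cell markers 4 were higher after Mitsui-7 in Wild Type and 3 in heterozygous rats, with Aqp3 14.4-fold and 12.45-fold and Krt14 2.90-fold and 4.67-fold higher. Their summed level ran from -2.42 to -1.42 in Wild Type controls and from -1.08 to -0.40 after Mitsui-7, and in heterozygous rats from -2.66 to -1.69 and from -1.19 to -0.12. After NM-403 it ran from -2.23 to -1.005 and from -2.35 to -1.46. Aqp3 alone was called after NM-403 as well, 3.81-fold higher in Wild Type (adjusted p = 0.000121) and 2.30-fold in heterozygous rats (adjusted p = 0.0409). The heterozygous call was lost under normexp correction (0.19, adjusted p = 0.399). Of 12 ciliated cell markers 7 were higher after Mitsui-7 in Wild Type (5 without replicate 5) and 5 higher and 1 lower in heterozygous rats. Their summed level ran from 5.84 to 5.97 in Wild Type controls and from 5.68 to 5.93 after Mitsui-7. Of 9 club cell markers 2 were higher and 3 lower in Wild Type, and 2 higher and 2 lower in heterozygous rats. In Wild Type Cyp2f4 differed by -0.55 ± 0.13 (adjusted p = 0.00284). Bpifa1 was also called lower there, a call lost without Mitsui-7 replicate 5 (-1.55, adjusted p = 0.131). Scgb3a2 was called higher in heterozygous rats, but not with array median scaling (0.47, adjusted p = 0.0581) or normexp correction (0.45, adjusted p = 0.0646). Of 8 mast cell markers 4 were higher and 1 lower in Wild Type and 4 higher and 2 lower in heterozygous rats. Of 10 macrophage markers 5 were higher in Wild Type and 4 in heterozygous rats, and their summed level ran from 2.23 to 2.60 in Wild Type controls, where Marco was above background on no array, and from 2.99 to 3.80 after Mitsui-7. Of 6 tuft cell markers 1 was higher in Wild Type, and 1 higher and 2 lower in heterozygous rats. Of 4 eosinophil markers 1, Ccr3, was higher in Wild Type (adjusted p = 0.0502 without Mitsui-7 replicate 5) and none in heterozygous rats, in limma's fit (1 and 0 with an unadjusted p under 0.05). Of 13 lung identity markers 0 were higher and 5 lower in each genotype in limma's fit (7 and 7 with an unadjusted p under 0.05). Of 8 mesothelial markers 1 was higher and 3 lower in Wild Type, and 1 higher and 1 lower in heterozygous rats. Of 6 gland serous cell markers 2 were higher and 1 lower in each genotype. The lower one was Lpo, a secreted peroxidase (-0.98 and -0.92, adjusted p = 0.0216 and 0.034), calls lost under normexp correction (0.0902 and 0.057), and in Wild Type without Mitsui-7 replicate 5 (0.064). After NM-403 Lpo was 2.73-fold higher in Wild Type (adjusted p = 0.00264). Of 6 gastric or intestinal markers 1 was higher in Wild Type, and 1 higher and 1 lower in heterozygous rats. The higher one was Lgals4, a gut epithelial galectin (7.46-fold and 6.55-fold as measured), whose heterozygous call was lost under normexp correction (adjusted p = 0.16). Lgals4 was well above background on no control array and on no Wild Type NM-403 array. It reached the filter through exposed arrays only, so its folds rest on signals near background and its tests are no independent support. The part of these cells in the differences of the mucous cell genes was not tested.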

How the data were processed

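RNA of 35 lungs was hybridised to 1-colour Agilent arrays. The deposited scanner files hold background-corrected, processed signal intensity per spot, made with Agilent Feature Extraction (version 12.0.1.1 in the notes the submitters gave on processing, as deposited). The authors' deposited value table holds log2 values of 11555 probes, centred per probe; who centred it and the rest of its normalization are not given in the sources used here. It was used as an alternative only.

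Control spots and outlier flags were left out, spots of a probe were averaged, and log2 intensity minus each array's 75th percentile was taken. Each gene name was read by its probe with the highest mean. Genes well above background on at least 5 arrays were kept. All 6 groups were fitted together with limma 3.58.1 in R 4.3.3, with moderated statistics and Benjamini-Hochberg adjustment over all genes kept. The fit was also run on simulated data with independent arrays and no slide effect. That run does not cover arrays of a slide that deviate together. Muc5ac, outside the filter, had an exact permutation test. The number of arrays limits the precision.

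All 10 members are named. From other lists, up to 4 genes per exposure comparison that passed are named, by size, and for likeness the 3 highest correlations per member were taken. The members and lists were chosen with earlier results of these data known. Replicate numbers do not mark shared animals, and same-numbered arrays did not deviate together (mean correlation 0.03 over 85 pairs). Alternatives were slide blocks, a replicate block, quantile and median scaling, normexp, filters, array weights, other fits, the authors' values and leaving out each rat. The check of the altered gene is not reported here.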

Additional observations from a re-analysis of the deposited data

Results flagged for a closer look

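Of 60 sets of values (10 genes in 6 groups), 3 held a rat whose gap to the nearest other rat, relative to the range of the group, passed Dixon's 95% critical value, and chance alone marks about 1 in 20 groups. Muc4 in replicate 3 of the Wild Type NM-403 group was the lowest of its group at -5.59, with the nearest rat at -3.64. Foxa3 was also lowest in that rat, at -8.64 against -7.25 in the nearest; without it the Foxa3 difference from controls was 1.65 (limma adjusted p = 0.0122). Gcnt3 in replicate 2 of the heterozygous control group was the highest at -8.22, with the nearest at -9.20, and was not well above background on either array.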

How the results depend on the processing

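No difference of a member changed direction where it was called; of the member results under the alternatives, 2233 stayed on the same side of the threshold, 32 moved past it and 21 fell below it. With the authors' values, which hold 4 of the members, 3 were called after Mitsui-7 in Wild Type and 3 in heterozygous rats, 1 after NM-403 in Wild Type, and 2 and 2 between the materials; fewer members were measured there. In heterozygous rats after NM-403, 1 member was called with normexp and 5 with array weights, and the cause was not tested. Leaving out single rats gave 8 to 8 and 7 to 8 members after Mitsui-7, 2 to 3 and 2 to 3 after NM-403, 4 to 5 and 4 to 5 between the materials, and 0 for genotype and its interactions. With the replicate number as a block, 8, 3, 7, 3, 4 and 4 members were called, Foxa3 after NM-403 in Wild Type being added (adjusted p = 0.0464), and no other call changed. The detection floor was chosen after seeing the data. Over all genes, 5431 were called after Mitsui-7 in Wild Type with the slide as a fixed block against 3419 without it. The share of calls that were higher was 60.2% in the fit without the slide block, 43.2% with array median scaling and 49.6% with quantile normalization. For Mitsui-7 against NM-403 in Wild Type it was 83.4%, 66.4% and 73.0% in the same order. Dim probes limit Clca1 in heterozygous controls, Muc5b, Gcnt3, Foxa3 and Muc5ac, whose sizes rest on signals near background. The size of the Muc4 differences also depended on the processing.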
